A study of Mus musculus with 16 samples.

Results

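Mouse embryonic stem cells kept in 2i with an Activin/Nodal receptor inhibitor were compared with cells kept in 2i alone, on 8 of the 16 arrays of the series. The 4 arrays titled 2iSB were set against the 4 titled 2i, by title alone and with no measured value used in the choice. Both groups were grown with LIF, a cytokine that sustains self-renewal, and with 2i, a pair of inhibitors of the kinases MEK and GSK3. The 2iSB_LIF lines received SB431542 as well, which blocks the type I receptors for Activin, Nodal and TGF-beta. All lines were derived from 129/Ola mice, the lines of both groups from pre-implantation embryos, and both groups are labelled ground state. The other 8 arrays hold 4 serum and LIF lines and 4 epiblast stem cell lines kept in Activin A and bFGF, which entered the fit to help estimate the spread. Each array stands for 1 line, at passages 22, 17, 19 and 24 in 2iSB_LIF and 24, 22, 23 and 22 in 2i_LIF, in array order. The labels give neither inhibitor doses nor the length of treatment. The groups are taken to be of different lines, on the word line alone. The spread between arrays then includes that between lines, and a group difference cannot be told apart from a difference of lines.

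Activin, Nodal and TGF-beta bind paired type I and type II receptor kinases, which phosphorylate Smad2 and Smad3. These join Smad4, enter the nucleus and, with partners such as Foxh1, switch on target genes. Several targets feed back on the signal: Lefty1 and Lefty2 are secreted antagonists of Nodal, Smad7 is an inhibitory Smad, and Pmepa1 is a membrane protein that captures Smad2 and Smad3. In the early mouse embryo the pathway patterns the epiblast and is needed to keep epiblast stem cells pluripotent.

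A level below is the log2 processed signal of a probe less the 75th percentile of its array, so 0 is a bright probe and a difference of 1 is a 2-fold change in signal. Differences are 2iSB_LIF minus 2i_LIF on that scale. They come from a limma model of 4 group means over 16 arrays, with its standard error (SE) and a Benjamini-Hochberg adjusted p over 15509 genes. Genes count as called where this adjusted p is under 0.05 and the difference is 2-fold or more. Between 52.9% and 63.8% of probes were well above background on the 2iSB_LIF arrays, and between 53.3% and 61.8% on the 2i_LIF arrays, and no spot was saturated. The labels name 4 lines per group. In bulk RNA, fewer cells expressing a gene and less RNA per cell cannot be told apart.

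Single lines stood apart by whole chromosomes. The median deviation of 618 X-linked genes, less that of the autosomes, was −0.59 on 2iSB_LIF array 1 and 0.23, 0.49 and 0.27 on arrays 2 to 4, against 0.53 and 0.26 on 2i_LIF arrays 1 and 2 and −0.62 and −0.58 on arrays 3 and 4. Chromosome 8 genes were shifted by 0.32 on 2iSB_LIF array 1 and by 0.33 on 2i_LIF array 4. On 2iSB_LIF array 4, chromosome 2 genes were shifted by 0.37 and chromosome 16 genes by 0.26. Autosomes other than 2, 8 and 16 deviated by at most 0.08 on any array.

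**Figure D1:**
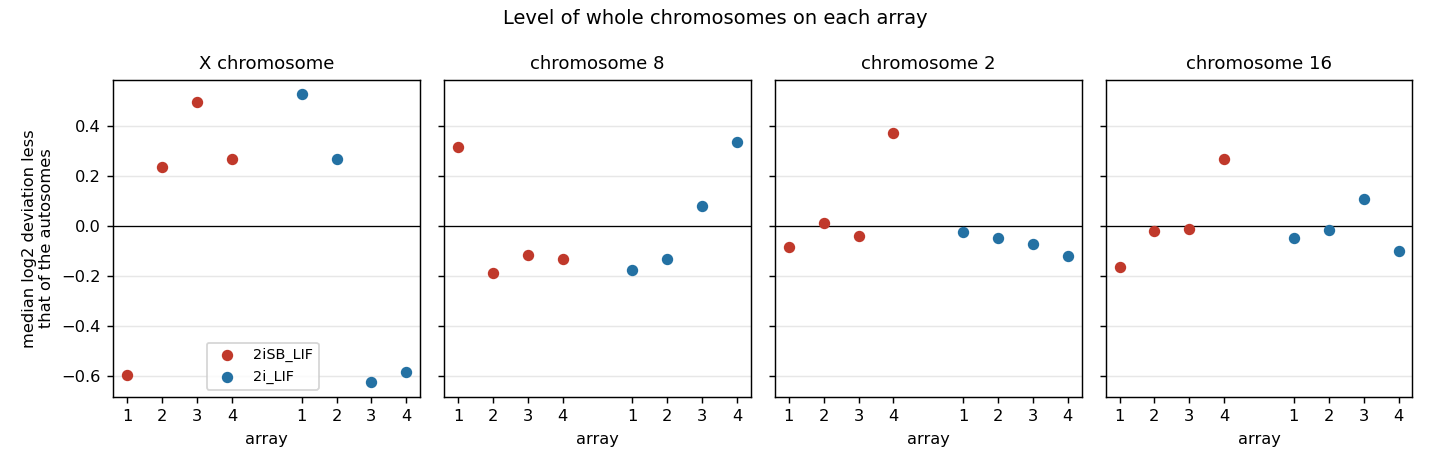
Median log2 deviation of the genes of the X chromosome and of chromosomes 8, 2 and 16 from the mean of the 8 arrays, less that of the autosomes (vertical axis), for each 2iSB_LIF array (red) and each 2i_LIF array (blue). X-linked genes lie between −0.62 and −0.58 on 3 arrays, 2iSB_LIF array 1 and 2i_LIF arrays 3 and 4, and above 0 on the other 5.

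The inhibitor group differed from 2i_LIF in few genes. Of 15509 genes, 13 were called (0.0838%), 11 lower in 2iSB_LIF (0.0709%) and 2 higher (0.0129%). At an unadjusted p under 0.05 there were 865 genes (5.58%), and in 333 genes (2.15%) the 4 arrays of one group lay wholly above those of the other. In all, 96.9% of genes differed by less than 2-fold, and the median difference was −0.01. Arrays of different groups resembled each other as much as arrays of the same group did: Pearson's r across genes averaged 0.973 between the groups, 0.974 within 2iSB_LIF and 0.971 within 2i_LIF. When only the 8 arrays estimated the spread, 3 genes were called (0.0193%): Lefty1, Lefty2 and Asxl3, a gene that was not well above background on any of the 8 arrays.

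**Figure D2:**
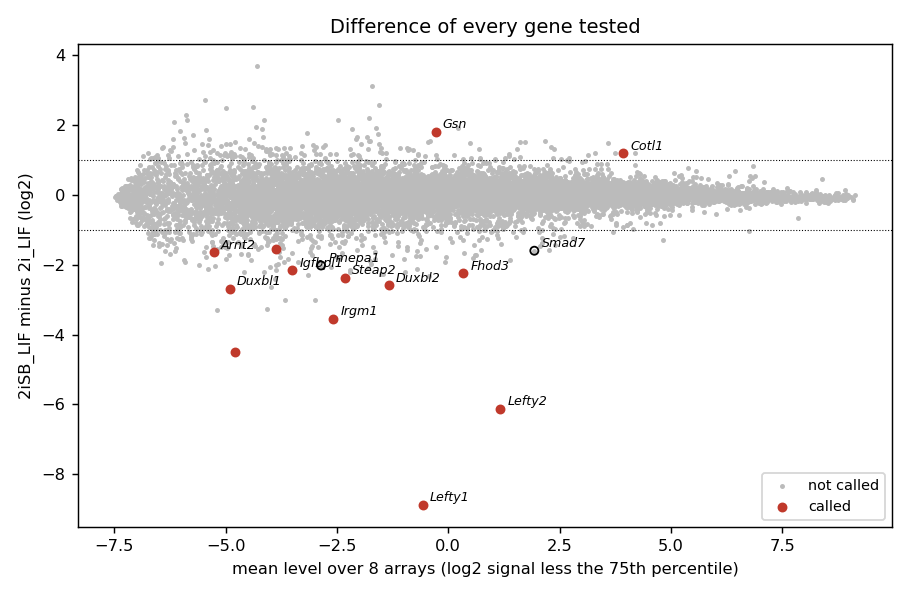
Difference between 2iSB_LIF and 2i_LIF (log2, vertical axis) against mean level over the 8 arrays (log2, horizontal axis) for 15509 genes, each a point. Red points were called and 11 of the 13 are labelled, open circles are Smad7 and Pmepa1, and dotted lines mark 2-fold; Lefty1 at −8.88 and Lefty2 at −6.13 lie far below all other genes.

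The Nodal antagonists Lefty1 and Lefty2 fell furthest of all genes tested. The Lefty1 level was −5.72, −4.84, −5.03 and −4.47 on the 2iSB_LIF arrays, against 4.27, 3.23, 3.25 and 4.72 on the 2i_LIF arrays. Only 1 of the 4 2iSB_LIF arrays measured Lefty1 well above background, and all 4 2i_LIF arrays did. The difference was −8.88 (SE 0.49, adjusted p = 2.9e-07). Because most 2iSB_LIF arrays measured Lefty1 at background, its size depends on how background is treated, and with normexp background correction on the median signals, chosen after the files had been seen, it was −6.97. With the deposited processed signal it was −8.59 within slide 1 and −9.75 within slide 2, which held only 2iSB_LIF array 3 and 2i_LIF array 4 of these groups. Lefty2 remained measurable under the inhibitor. Its level was −2.10, −1.75, −1.90 and −1.84 in 2iSB_LIF, against 4.29, 3.72, 3.22 and 5.72 in 2i_LIF. The 2iSB_LIF arrays lay close together (SD 0.15), whereas the 2i_LIF arrays were spread more widely (SD 1.08). The difference was −6.13 (SE 0.55, adjusted p = 0.00013), a 70.3-fold lower signal. Within slide 1 it was −5.64, and between the same single arrays on slide 2 it was −7.62. A fit on the 8 arrays alone also called both genes, at adjusted p-values of 9.6e-05 for Lefty1 and 0.0041 for Lefty2.

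The intracellular inhibitors Smad7 and Pmepa1 were lower on every 2iSB_LIF array than on every 2i_LIF array, but neither passed the test. The Smad7 level was 0.45, 1.40, 1.36 and 1.34 in 2iSB_LIF, against 2.82, 3.35, 2.53 and 2.24 in 2i_LIF. The 2iSB_LIF array 1 stood apart below its group. The difference was −1.60 (SE 0.38, adjusted p = 0.18). For Pmepa1 the level was −3.42, −4.16, −4.07 and −3.82 in 2iSB_LIF, against −2.75, −1.87, −1.54 and −1.22 in 2i_LIF. Its difference was −2.02, with an adjusted p of 0.57 and an SE of 0.71 in the fit that includes the serum lines, where Pmepa1 was −0.44 and −0.95 on slide 1 and −4.31 and −4.09 on slide 2. Estimated from the 8 arrays, the SE was 0.34 and the adjusted p 0.32. A second Pmepa1 probe differed by −1.52.

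**Figure D3:**
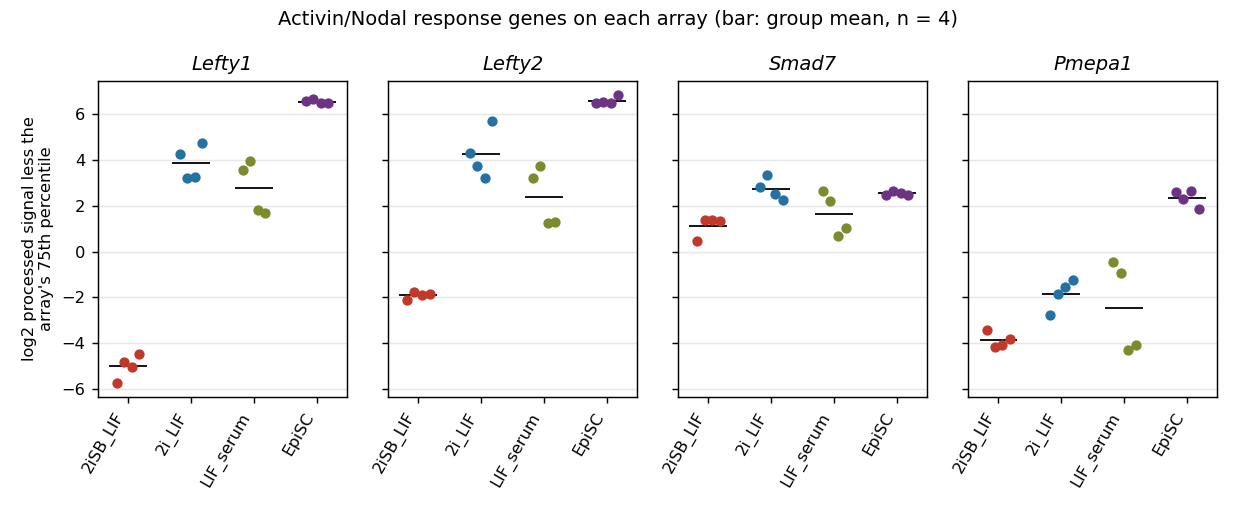
Level of 4 Activin/Nodal response genes on each of the 16 arrays (log2 processed signal less the 75th percentile of the array), with the group mean as a bar (n = 4). The 2iSB_LIF points of all 4 genes lie below the 2i_LIF points, with the widest gap in Lefty1 and the narrowest in Pmepa1 and Smad7.

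The ligands, receptors and transducers of the pathway showed small differences. Pathway genes were grouped by role, and lists are given beside the median over all genes tested, −0.01. None of the 14 tested ligands and processing genes was called by limma or had an unadjusted p under 0.05, and their median was −0.11. Nodal itself, which sustains its own transcription through this pathway, averaged 3.42 in 2iSB_LIF and 3.98 in 2i_LIF, and its difference of −0.56 (SE 0.26) had an adjusted p of 0.90. The TGF-beta family ligand Gdf3 was level between the groups, at 5.23 in each. Among the 9 tested receptors and co-receptors, 0 were called, 1 had an unadjusted p under 0.05, and the median was 0.29. The Nodal co-receptor Tdgf1 averaged 3.99 in 2iSB_LIF and 4.48 in 2i_LIF (difference −0.49, SE 0.15, adjusted p = 0.46). The type I receptors that SB431542 targets were measured at similar levels, with differences of 0.32 for Acvr1b and 0.09 for Tgfbr1. All 7 signal transducers were well above background on all 8 arrays and none was called, 1 having an unadjusted p under 0.05. Smad2 differed by 0.11, Smad3 by 0.44 (SE 0.18, adjusted p = 0.73), Smad4 by 0.12 and Foxh1 by 0.12.

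Of 16 inhibitors and feedback genes, 2 were called lower and none higher, and 4 had no overlap between the groups, all lower in 2iSB_LIF, beside 1.24% of all genes in that direction. The 4 were Lefty1, Lefty2, Smad7 and Pmepa1; they serve as response markers here and were chosen as such with earlier results of these data known. Skil, which represses Smad targets, differed by −0.50 (adjusted p = 0.90), and Fst, which encodes the Activin-binding protein follistatin, by −0.70 (SE 0.53). Of 17 tested target genes, 3 were called lower and 0 higher, beside 0.0709% and 0.0129% of all genes. In 5 the groups did not overlap, all lower in 2iSB_LIF, with the 4 response markers among them. Unadjusted p was under 0.05 in 7, beside 5.58% of all genes, and the median was −0.49. Some members of this list are not described here. Mesendoderm targets were low and uncertain: Eomes differed by 0.18, Gsc by 0.35 and T, the gene for brachyury, by −0.47 with only 1 array well above background in each group. Foxa2 had a difference of 2.14, but its SE was 0.94, its adjusted p 0.84 and its groups overlapped.

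**Figure D4:**
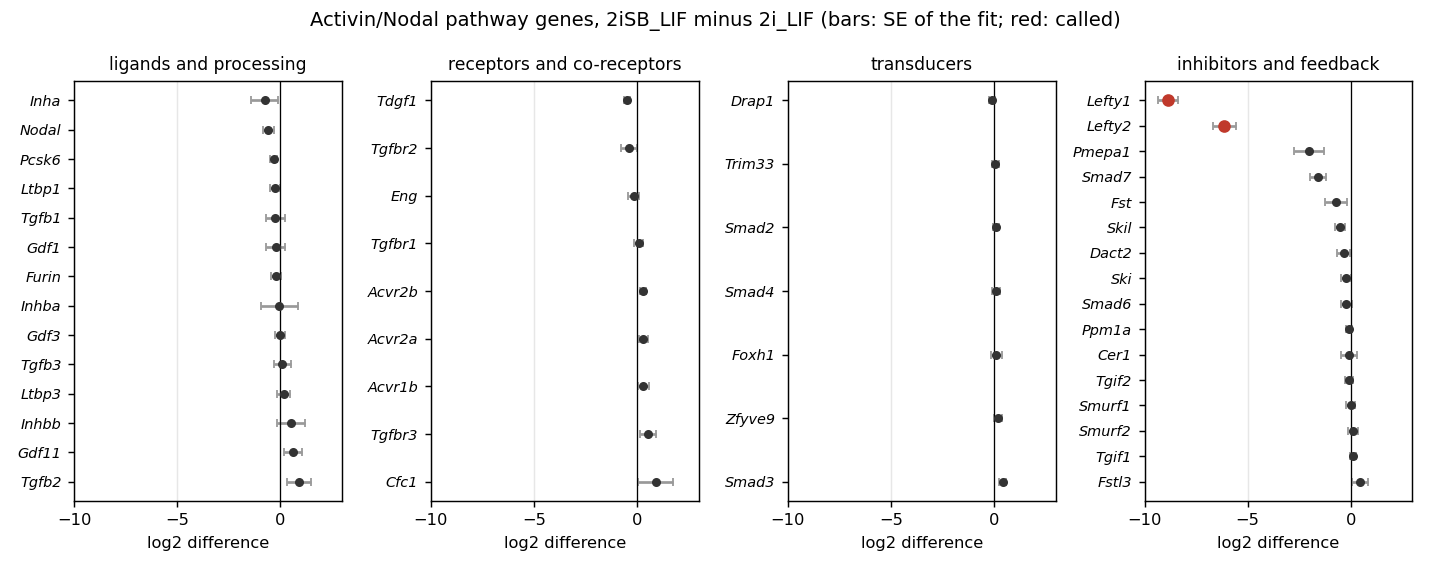
Difference between 2iSB_LIF and 2i_LIF (log2, horizontal axis) of the tested ligands, receptors, transducers and inhibitors of the Activin/Nodal pathway, with the SE of the fit as bars and called genes in red. Lefty1 and Lefty2 lie far to the left, Pmepa1 and Smad7 follow, and the others lie within 1 log2 unit of 0.

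Both Lefty genes lie on chromosome 1, and Tmem63a, the next protein-coding gene beyond Lefty1 in RefSeq's order, was likewise lower on every 2iSB_LIF array than on every 2i_LIF array. Tmem63a, a membrane ion channel gene, was −2.40, −1.01, −0.29 and −2.66 in 2iSB_LIF, against 0.41, 0.77, −0.06 and 1.76 in 2i_LIF. The difference of −2.31 did not pass the test (SE 0.47, adjusted p = 0.10). Genes further out differed little: Ephx1 by −0.16, Nvl by 0.04 and Cnih4 by −0.15 on the Tmem63a side, and Sde2 by 0.01, H3f3a by −0.10 and Acbd3 by −0.06 beyond Lefty2. These genes were looked at after the value of Tmem63a had been seen, so the values are a description. With slide as a block over 16 arrays Tmem63a was called, at an adjusted p of 0.015.

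The same was asked of the protein-coding genes on each side of the 9 called genes described here that fell, up to 5 on a side. Of 50 such neighbours that were tested and not themselves called, 6 lay wholly lower in 2iSB_LIF (12.0%), beside 1.24% of all genes. Tmem63a, which prompted the question, is among the 6, so this share is a description and was not tested. Besides Tmem63a, the 6 included Aldh1b1 and Stra6l, on either side of Igfbpl1, and Steap1, next to Steap2. The others were Tmem254c, among the Duxbl copies, and Psme2b, near Irgm1. Aldh1b1, a mitochondrial aldehyde dehydrogenase, averaged −1.77 ± 0.83 in 2iSB_LIF and 0.35 ± 1.23 in 2i_LIF (SD, n = 4 each), with an adjusted p of 0.17. Stra6l differed by −1.35 (adjusted p = 0.46), and only 2 of 4 2iSB_LIF arrays measured it well above background. Steap1 differed by −1.20 (SE 0.29, adjusted p = 0.19). Around the 2 called genes that rose, 0 of 16 tested neighbours lay wholly higher.

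On chromosome 18, 3 probes for transcripts with no gene name fell as well, with little spread between arrays. They are named in the files only by position, in build mm9 and on the reverse strand. A pair of them covers chr18:75513062-75523889. The first of the pair was −2.35, −1.97, −2.06 and −2.31 in 2iSB_LIF, against 0.88, 1.1, 0.44 and 0.75 in 2i_LIF. Its difference was −2.96 (SE 0.34, adjusted p = 0.0012 over 33266 probes), and that of the second was −2.69 (SE 0.31, adjusted p = 0.0012). The third probe, for chr18:75518299-75524782, was −1.88, −1.38, −1.46 and −1.91 in 2iSB_LIF, against 1.36, 1.51, 0.91 and 1.24 in 2i_LIF, with a difference of −2.92 (SE 0.36, adjusted p = 0.0026). The positions overlap, so the probes may measure 1 transcript. Smad7 also lies on chromosome 18 in RefSeq, but its position in mm9 was not available here.

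Outside the pathway, 7 further called genes that fell and 2 that rose are described. Irgm1, an interferon-inducible GTPase of innate immunity, was −6.87, −3.70, −3.14 and −3.76 in 2iSB_LIF, against −1.18, −0.63, −0.91 and −0.50 in 2i_LIF. The 2iSB_LIF array 1 lay more than 3 log2 units below the others, and it alone was not well above background. The difference was −3.56 (SE 0.61, adjusted p = 0.044), and a second probe gave −3.54. The call was lost without 2iSB_LIF array 2 or 4 or any 1 of the 2i_LIF arrays, with adjusted p-values of 0.056 to 0.13. Without 2iSB_LIF array 1 the difference was −2.72 (adjusted p = 0.0024).

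The double homeobox genes Duxbl1 and Duxbl2 fell together. Duxbl2 was −2.33, −2.60, −2.69 and −2.90 in 2iSB_LIF, against 0.47, −1.0, −0.44 and 0.83 in 2i_LIF, a difference of −2.60 (SE 0.29, adjusted p = 0.0012). Duxbl1 was well above background on none of the 2iSB_LIF arrays and on all 2i_LIF arrays. Measured against the background floor, the lowest signal counted as well above background on an array, its processed signal was at least 3.08-fold lower. The adjusted p of 0.0010 is that of the fitted difference, −2.69. With normexp background correction the Duxbl1 difference was −0.89 (adjusted p = 0.12). These genes are near-identical copies on chromosome 14, so their probes may measure the same transcripts. Genes of the 2-cell-like state, in which related factors act, were not called: of 9 tested, 8 were below 0 and their median was −0.60, but Zscan4f differed by −1.29 with an SE of 0.92.

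Steap2, a metalloreductase, was −3.32, −3.70, −4.21 and −2.81 in 2iSB_LIF, against −0.24, −0.92, −1.07 and −2.27 in 2i_LIF. The groups did not overlap, although 2i_LIF array 4 came near the 2iSB_LIF arrays, and the difference was −2.38 (SE 0.35, adjusted p = 0.015). The other 2 Steap2 probes were not well above background on any of the 8 arrays. Fhod3, a formin that organises actin in striated muscle, was −0.02, −1.06, −1.22 and −0.82 in 2iSB_LIF, against 2.04, 0.71, 1.22 and 1.90 in 2i_LIF. All 8 arrays measured it well above background, and it fell by 2.25 (SE 0.32, adjusted p = 0.013). Igfbpl1, related to the insulin-like growth factor binding proteins, was −4.80, −4.67, −4.57 and −4.31 in 2iSB_LIF, against −3.50, −2.94, −1.90 and −1.36 in 2i_LIF (difference −2.16, SE 0.34, adjusted p = 0.025). Its call was lost without 2iSB_LIF array 2, 3 or 4 or 2i_LIF array 3, with adjusted p-values of 0.053 to 0.089. Arnt2, a bHLH-PAS transcription factor, was well above background on none of the 2iSB_LIF arrays and on all 4 2i_LIF arrays. Against the floor, its processed signal was at least 1.66-fold lower. The adjusted p of 0.024 is that of the fitted difference, −1.64. With normexp the Arnt2 difference was −0.46 (adjusted p = 0.62). Without 2iSB_LIF array 2 or 2i_LIF array 4 its adjusted p was 0.056 or 0.075.

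Both called genes that rose encode proteins that bind actin. Gsn, which encodes the actin-severing protein gelsolin, was 0.20, 0.23, 0.76 and 1.30 in 2iSB_LIF, against −0.72, −1.34, −1.22 and −1.47 in 2i_LIF. The difference was 1.81 (SE 0.28, adjusted p = 0.024), and a second probe gave 1.75. Cotl1, coactosin-like protein, was 4.51, 4.30, 4.79 and 4.47 in 2iSB_LIF, against 3.76, 2.84, 3.22 and 3.48 in 2i_LIF (difference 1.19, SE 0.20, adjusted p = 0.044). Neither group overlapped the other in either gene. Both calls were near the threshold. Gsn lost its call in 5 of the 8 fits that left out 1 array, 2iSB_LIF array 3 or 4 or 2i_LIF array 2, 3 or 4, with adjusted p-values of 0.056 to 0.077. Cotl1 lost its call in 7 of them, all but the one without 2i_LIF array 1, with adjusted p-values of 0.056 to 0.11.

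**Figure D5:**
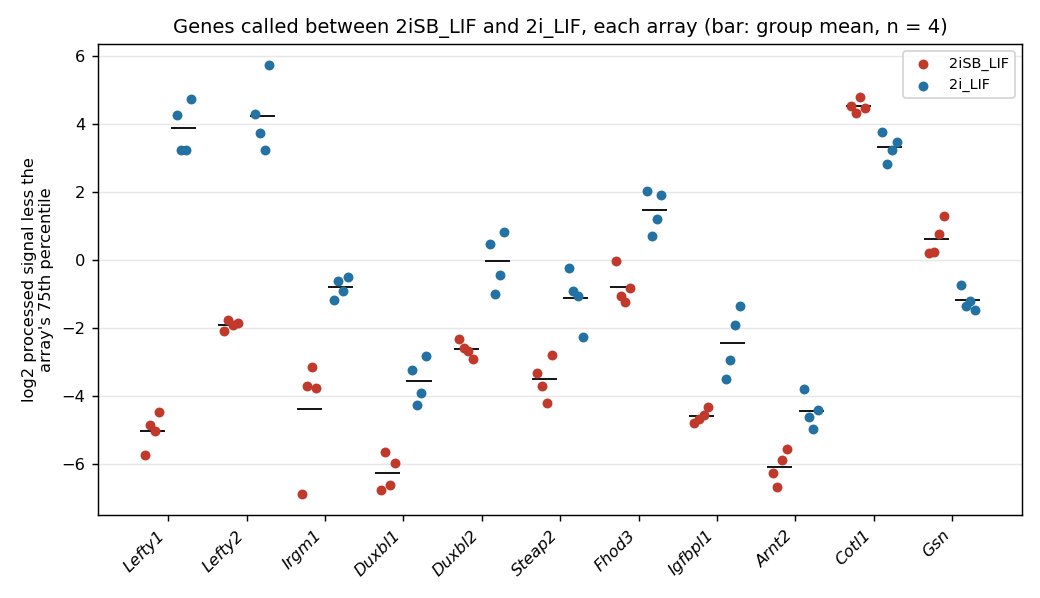
Level of 11 called genes on each of the 8 arrays (log2 processed signal less the 75th percentile of the array), 2iSB_LIF in red and 2i_LIF in blue, with group means as bars (n = 4 each). The groups do not overlap in any of the 11 genes, and 2iSB_LIF array 1 lies apart in Irgm1.

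Promoters of the called genes were read for the SMAD box, CAGAC or GTCTG on either strand, because Smad3 and Smad4 bind it directly. Windows of 4 of the 11 called genes described here, Irgm1, Steap2, Arnt2 and Gsn, were read from RefSeq's table, in build GRCm38.p6. Whether the table also held windows of the other called genes is not reported here. The windows run from 250 bases before to 50 bases after the gene start. Steap2 and Gsn each have 3 windows there, of which only the first listed was read. Of the 4 genes, only Gsn rose. The pair of windows with a box belongs to Irgm1 and Steap2 and is shown 5′ to 3′ on the gene's strand, with the box in capitals. The Irgm1 window is chr11:48871371-48871670 on the minus strand and holds 3 boxes, and the Steap2 window is chr5:5694519-5694818 on the minus strand and holds 1.
Irgm1: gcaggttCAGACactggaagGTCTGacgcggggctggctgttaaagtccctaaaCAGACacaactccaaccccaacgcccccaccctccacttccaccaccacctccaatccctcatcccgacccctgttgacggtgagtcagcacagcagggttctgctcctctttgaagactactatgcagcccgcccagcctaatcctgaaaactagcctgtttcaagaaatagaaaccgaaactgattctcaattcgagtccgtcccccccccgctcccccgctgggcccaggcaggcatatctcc
Steap2: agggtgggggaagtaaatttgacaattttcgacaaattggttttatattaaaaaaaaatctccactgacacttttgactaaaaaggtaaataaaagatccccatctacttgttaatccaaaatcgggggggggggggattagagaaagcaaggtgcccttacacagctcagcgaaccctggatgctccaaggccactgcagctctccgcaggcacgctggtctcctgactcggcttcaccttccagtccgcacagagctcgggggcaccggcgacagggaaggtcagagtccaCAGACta
The windows of Arnt2 and Gsn that were read held none. Such a box stands in 49.6% of the 32851 promoter windows of this table, so its presence in these windows is common.

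Further genes were ranked by size among those well above background on all 8 arrays, with no overlap and an unadjusted p under 0.01, which left 73 lower and 47 higher candidates. They were chosen for their difference and are a description. Besides called genes and Tmem63a, the 10 largest falls held Grik4, a kainate receptor subunit (−2.28, adjusted p = 0.0505), the keratin Krt17 (−2.20, adjusted p = 0.15), and the major urinary protein genes Mup6 (−2.26) and Mup20 (−2.16). The largest rise was Phlda2, an imprinted gene that restrains placental growth. It was −1.56, −0.69, −0.59 and 1.75 in 2iSB_LIF, against −1.93, −3.00, −2.93 and −3.52 in 2i_LIF, with a difference of 2.57 (SE 0.52, adjusted p = 0.10). The integrin genes Itga9 (2.21, adjusted p = 0.25) and Itga7 (1.30, adjusted p = 0.23), the adenylyl cyclase Adcy5 (1.60, adjusted p = 0.062), and Eras, a Ras gene of embryonic stem cells (1.55, adjusted p = 0.13), followed. Another, dimmer Adcy5 probe differed by 2.70 (limma adjusted p = 0.028 over 33266 probes). It was well above background on all 4 2iSB_LIF arrays and on 0 2i_LIF arrays. Bmp4, a ligand of the parallel BMP branch, was 1.95, 1.73, 2.55 and 3.22 in 2iSB_LIF, against 0.59, 1.36, 1.46 and −0.01 in 2i_LIF. Its difference of 1.51 (SE 0.46) had an adjusted p of 0.45. Nr6a1, an orphan nuclear receptor, Fam83g and Mbp completed the 10 largest rises, with differences of 1.35, 1.32 and 1.31.

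Stem cell identity genes barely differed. All 23 naive pluripotency genes were well above background on all 8 arrays, none was called or had an unadjusted p under 0.05, and their differences ran from −0.48 to 0.57 with a median of −0.02. Pou5f1, which encodes Oct4, averaged 5.58 in 2iSB_LIF and 5.71 in 2i_LIF. Nanog, which Smad2 and Smad3 are known to activate in epiblast stem cells, averaged 4.34 in 2iSB_LIF and 4.49 in 2i_LIF (difference −0.15, SE 0.24). In 1 of the 23, Pecam1, a cell adhesion gene, the groups did not overlap (difference −0.38, adjusted p = 1.0). Of 13 primed epiblast genes 0 were called and 1 had an unadjusted p under 0.05, with a median of −0.16. The BMP list, 20 genes tested with 0 called and 2 at an unadjusted p under 0.05, had a median of 0.04. Its direct targets Id1 and Id3 differed by 0.72 and 0.41 with SEs of 0.54 and 0.75. In the ERK feedback list, 16 genes with 0 called and 2 at an unadjusted p under 0.05, Egr1 was the only gene without overlap. This immediate early gene was 2.20, 1.79, 0.05 and 1.61 in 2iSB_LIF, against 2.37, 3.66, 2.54 and 2.61 in 2i_LIF, and its difference of −1.38 (SE 0.41) had an adjusted p of 0.42.

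No gene of the lists of other cell types was called. None of the 20 fibroblast and feeder genes was called, free of overlap or at an unadjusted p under 0.05, and their median was −0.12. Their summed signal, in multiples of the 75th percentile of the array, was 129 to 186 in 2iSB_LIF and 140 to 163 in 2i_LIF, and Dcn, Lum and Postn were not well above background on any of the 8 arrays. Of 11 primitive endoderm genes and 11 trophectoderm genes, 0 were called, with 1 and 2 at an unadjusted p under 0.05. Elf5, a trophoblast transcription factor, was well above background on all 4 2iSB_LIF arrays and on none of the 2i_LIF arrays, but was not called (adjusted p = 0.46). Its groups touched, at −4.88 on the lowest 2iSB_LIF array and −4.88 on the highest 2i_LIF array. In the neural list 3 of 11 tested genes had an unadjusted p under 0.05 and 0 were called; Pax6, a neural transcription factor, differed by 1.66 (SE 0.53, adjusted p = 0.46). The 10 tested Rhox genes, an X-linked homeobox cluster, had 9 differences above 0, a median of 0.52, and 0 called or at an unadjusted p under 0.05.

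Genes described that lie on the shifted chromosomes include Gsn and Pmepa1 on chromosome 2, Cotl1 on chromosome 8 and Adcy5 on chromosome 16. Eras and the Rhox genes lie on the X chromosome. This list is not complete. The part of the shifts of whole chromosomes in the differences of any gene on them was not tested. Of 620 X-linked genes tested 0 were called, and 4 (0.645%) did not overlap, beside 2.15% of all genes. Their median difference was 0.19. They spread more widely within the groups, with a median SD of 0.60 in 2iSB_LIF and 0.66 in 2i_LIF. For autosomal genes it was 0.34 and 0.35. The low share therefore does not show that X-linked genes were less affected. Without the 3 arrays of low X-linked level, a setting added after the data had been seen, Lefty1 differed by −8.53 and Lefty2 by −5.84.

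Over the 16 arrays, genes whose level correlated closely with Lefty1 included Lefty2 (Pearson's r = 0.977), Igfbpl1 (0.919) and Irgm1 (0.918). The arrays fall into 4 groups, which these correlations share, so r serves here as a measure of likeness only. In the epiblast stem cell lines, which were kept in Activin A, Lefty1 ran from 6.48 to 6.65 and Lefty2 from 6.49 to 6.82, above every 2i_LIF array. In the serum lines Lefty1 was 3.56, 3.97, 1.81 and 1.69, above every 2iSB_LIF array. Serum arrays 1 and 2 were on slide 1, and serum arrays 3 and 4 and all epiblast stem cell arrays on slide 2.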

How the data were processed

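RNA from each line was hybridised to 1 single-colour Agilent array. Per the file headers, the deposited intensity values come from Agilent Feature Extraction 10.7.1.1 and are background-subtracted, with no scaling between arrays. The authors also deposited a table of log2 values of 42316 of the 55681 probes, used as an alternative, and the submitters' processing notes name limma. Its medians on the 8 arrays are 7.55 to 7.58, and its normalization is not stated in any source used.

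Probes were named through RefSeq accessions: 27656 matched 1 of 20972 symbols, 16194 were named by position alone and 11831 had no match. Testing required a probe to be well above background on every array of some group, and each gene was represented by its brightest probe on average. Levels are log2 signal less the 75th percentile of the array, fitted with limma 3.58.1 in R 4.3.3 and tested first on simulated data; files were read with jsonlite 2.0.0 and data.table (1.17.8). Slide 1 held 2iSB_LIF arrays 1, 2 and 4, 2i_LIF arrays 1, 2 and 3 and serum arrays 1 and 2, and slide 2 the others. Nothing but the word line says that arrays are separate derivations.

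Named genes are the called genes, up to 10 each way by size, the 10 largest falls and rises without overlap at an unadjusted p under 0.01, list members, and genes most like Lefty1. Some results that these rules select are not reported here. Genes, the 24 lists and these rules were chosen with earlier results of these data known. Normexp background correction used the median signal, since the mean was not in the files. Alternatives covered slide, scaling, background, filters, probes, passage, pairing and each array left out.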

Additional observations from a re-analysis of the deposited data

Results flagged for a closer look

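In 5 cases an array stood far from the other 3 arrays of their group, of 135 groups of 4 values examined, where chance alone would single out about 1 in 20. These were Smad7 on 2iSB_LIF array 1 at 0.45, Gdf3 on 2iSB_LIF array 3 at 5.64, Lhx1, a mesendoderm homeobox gene, on 2iSB_LIF array 3 at −4.65, Mbp on 2i_LIF array 4 at 0.81, and Ltbp1, which binds latent TGF-beta, on 2i_LIF array 1 at −0.14. Without 2iSB_LIF array 1 the Smad7 difference was −1.37 (adjusted p = 0.22).

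Probes without a gene name were not part of the comparison of genes. Of 12891 such probes tested, 7 were called (0.0543%), 6 lower and 1 higher in 2iSB_LIF. Besides the 3 overlapping probes on chromosome 18 described above, the falls included probes named EU257807 (−2.60, adjusted p = 0.037) and XR_105032 (−2.46, adjusted p = 0.015). The EU257807 probe was well above background on 0 2iSB_LIF arrays and 3 2i_LIF arrays. The last fall was a further chromosome 18 probe, for chr18:73863912-73864665 on the forward strand in mm9 (−1.54, adjusted p = 0.018). That probe was not well above background on any of the 8 arrays. The rise was a probe for the cDNA AK040906. It was −4.44, −3.45, −4.39 and −2.80 in 2iSB_LIF, well above background on all 4 arrays, against −7.47, −7.45, −7.18 and −6.84 in 2i_LIF, well above background on none (adjusted p = 0.00017).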

How the results depend on the processing

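Lefty1 was called under all 26 refits and Lefty2 under 25, the exception being a replicate block on 8 arrays (difference −6.13, adjusted p = 0.063). Smad7 and Pmepa1 were called under none. The count of 13 called genes became 3 on the 8 arrays alone, 3 with slide as a block there, 2 within slide 1, 20 with a background filter on the ground-state groups, 43 with passage as a covariate, 27 at an adjusted p under 0.10, and 27 on 16 arrays and 3 on 8 arrays with the X-linked level as a covariate. Leaving out each array in turn gave 11 to 27 calls, with 27 without 2iSB_LIF array 1. The replicate block gave 8 calls on 16 arrays and 1 on 8 arrays, but arrays of the same number did not deviate together (correlations −0.30, 0.40, −0.59 and −0.32), so the numbers were not taken as pairs. Fewer arrays leave fewer degrees of freedom; the cause of the other shifts was not tested. Of the other calls described, Duxbl2 and Fhod3 were called under 21 refits, Duxbl1 and Steap2 under 20, Gsn under 14, Irgm1 and Arnt2 under 12, Igfbpl1 under 11 and Cotl1 under 10. The differences of these genes, Smad7, Pmepa1 and Tmem63a kept their sign under all 26 refits; those of other pathway and list genes were not followed gene by gene. Genes near background, such as Duxbl1 and Arnt2, have only bounds, which hold for the processed signal and not for normexp. With normexp the Lefty1 difference was −6.97.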

Other observations

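Gene clusters seen among the falls were looked at after their values were known. Of 8 tested major urinary protein genes on chromosome 4, 7 were lower in 2iSB_LIF. In 4 the groups did not overlap, all lower, beside 1.24% of all genes in that direction. Mup17 differed by −2.41 (SE 0.45, adjusted p = 0.062) and Mup6 by −2.26 (SE 0.44, adjusted p = 0.084). The genes of this family are near-identical, so several probes may read the same transcripts. Mup19 went the other way, at 1.05 with an SE of 0.87.

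All 7 tested genes of the Hoxc cluster, homeobox genes of posterior identity on chromosome 15, were lower in 2iSB_LIF. In 4 the groups did not overlap, beside 1.24% of all genes in that direction. The 4 were Hoxc5, Hoxc9, Hoxc11 and Hoxc12. Of these, Hoxc5 was not well above background on any array of either group, and Hoxc12 differed by −0.82 (SE 0.45). Hoxc9 averaged −5.70 in 2iSB_LIF, where no array was well above background, and −2.42 in 2i_LIF, where all 4 were (adjusted p = 0.094). Hoxc11 differed by −2.65 (SE 0.59, adjusted p = 0.14) and Hoxc4 by −0.13 (SE 0.30). None of these genes was called.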
